A study of Mus musculus with 9 samples.

Results

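The genes described here carry names of motile cilia, the beating hair-like organelles of the cell surface, and were followed in mRNAs bound to the ribosomes of mouse astrocytes. Most of their products build or switch on such cilia, but 7 Spag members are not built into the ciliary core and 10 Cfap members have no settled place in it. They were chosen by name: protein-coding genes of the dynein heavy and light chain (Dnah, Dnal), cilia and flagella associated protein (Cfap), radial spoke head (Rsph) and sperm associated antigen (Spag) series, together with Hydin, Foxj1, Ak7, Tmem212 and Ccdc153. Of the 22092 genes in the count tables, 72 were members, and Cfap99, which fits the name pattern, had no row. The data were 3 whole astrocyte TRAP libraries from brain and 6 endfeet TRAP libraries from purified brain vessels, whose adhering astrocyte endfeet are the perivascular ends of astrocyte processes. In TRAP, tagged ribosomes are immunoprecipitated and the mRNAs attached to them are sequenced. All mice of both groups were 2 months old, of strain Aldh1L1 JD130 and genotype tg:Aldh1L1-L10aGFP, in which the Aldh1l1 promoter, active in astrocytes, drives the ribosomal protein L10a fused to GFP, and no untagged or input library was used here. Each whole astrocyte library came from a single brain with its choroid plexus taken out, and each endfeet library from the pooled vessels of several mice, so that the animal and the tissue preparation differ together between the groups.

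The core of a cilium, the axoneme, is a ring of microtubule doublets around a central pair in cilia that beat. Outer and inner dynein arms on the doublets pull neighbouring doublets past each other, and radial spokes and projections of the central pair set the rhythm. In the brain, bundles of such cilia cover the ependymal cells that line the ventricles, choroid plexus epithelial cells carry tufts of cilia, and astrocytes carry a single primary cilium, which lacks these arms and spokes.

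Whole astrocyte libraries held 35984144 to 43521208 counts over genes and endfeet libraries 2319495 (library 6) to 13450588, so that 3 counts, taken as the least that can be seen, corresponded to 0.0658 to 0.0811 and 0.197 to 1.37 normalized CPM (counts scaled to a common library size by TMM). Endfeet libraries also differed far more among themselves, with a common dispersion of 0.725 against 0.0142. Markers of endothelial cells (10 of 10 higher), mural cells (9 of 9) and fibroblasts (7 of 7) were higher in endfeet TRAP, and 5 of 11 astrocyte markers were lower and 1 higher. Of microglia and macrophage markers 6 of 9 were higher, and 2 of 8 neuronal and 1 of 6 oligodendrocyte markers were lower. The endothelial markers summed to 3477 to 5215 CPM in endfeet libraries against 11.9 to 16.3 CPM. In such bulk libraries, fewer cells of a type and less RNA per cell cannot be told apart.

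Most dynein heavy chains, several central apparatus proteins and several spoke proteins were higher in endfeet TRAP, the members that passed upwards by log2 fold changes of 1.99 to 7.58. Low counts kept 12 members out of the test, and of the 60 tested (edgeR's quasi-likelihood test, Benjamini-Hochberg adjusted p of at most 0.05 over 14427 genes), 26 passed upwards in endfeet TRAP, 5 passed downwards and 29 stayed short of the threshold. Over all genes tested, 20.7% were higher and 13.9% lower. The median log2 fold change was 2.40 over the members tested and 0.10 over all genes. Of the 60 tested, every endfeet library lay above every whole astrocyte library in 24, which happened in 18.9% of all genes tested, and below in 5, which happened in 23.8% of all. Among the 26 higher members, the mean level ran from 4.45 to 120 CPM in endfeet TRAP with a median of 28.8 CPM, and from 0.210 to 9.55 CPM in whole astrocyte TRAP with a median of 0.568 CPM. Leaving out any whole astrocyte library lowered the number of higher members to 18, and leaving out any endfeet library gave 24 to 31.

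**Figure D1:**
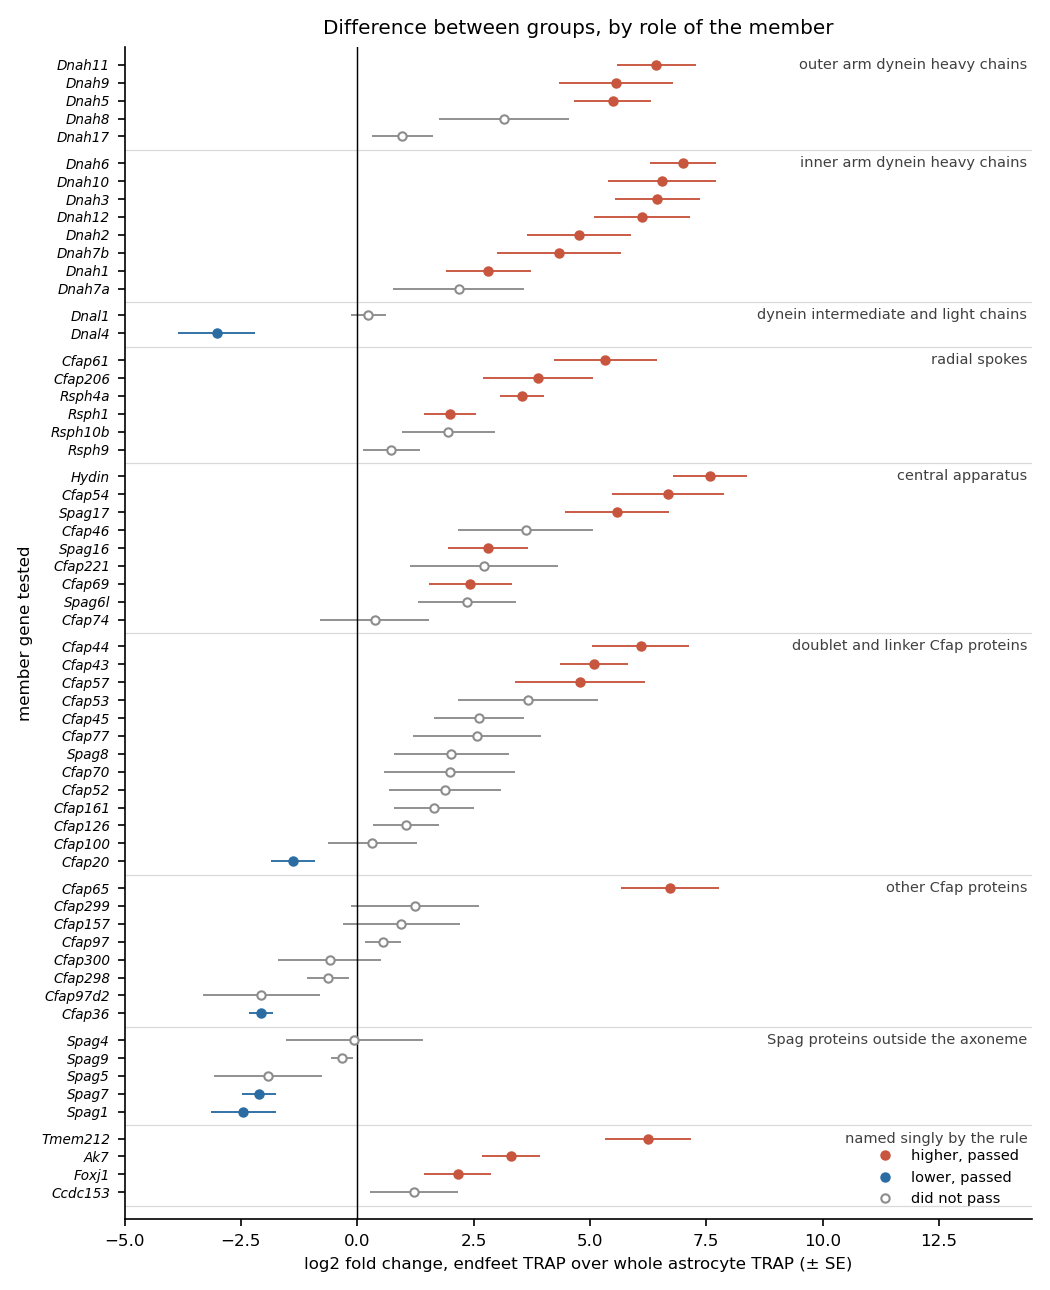
Log2 fold change (endfeet TRAP over whole astrocyte TRAP, edgeR) of the 60 members tested, grouped by role, with bars of 1 SE. Filled red points passed the threshold upwards (26), filled blue points downwards (5) and open points did not pass (29); 10 of the 13 dynein heavy chains tested are red.

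Outer arm dynein heavy chains, the motors that give a cilium most of its beat frequency, were split. Dnah5, Dnah9 and Dnah11 were higher in endfeet TRAP, and Dnah8 and Dnah17 did not pass. Dnah11 (chr12:117877982-118199043 of mm10, 82 exons in the counted transcript) stood at 0.297, 0.371 and 0.593 CPM in whole astrocyte libraries and between 12.3 and 68.7 CPM in endfeet libraries, with a median of 31.5 CPM. The groups did not overlap, and the log2 fold change was 6.43 ± 0.85 (SE; edgeR, adjusted p = 8.07e-05). Dnah9, which sits on the distal part of the cilium, stood at 0.595, 0.397 and 1.25 CPM in whole astrocyte libraries and between 1.83 and 96.7 CPM in endfeet libraries, with a median of 27.0 CPM. Its endfeet libraries were scattered over a wide range but all lay above the others (log2 fold change 5.56 ± 1.22, edgeR, adjusted p = 0.00344). Dnah5, the partner of Dnah11 or Dnah9 within an arm, was steadier, at 0.432, 0.397 and 0.307 CPM against 7.32 to 23.7 CPM with a median of 17.9 CPM (log2 fold change 5.49 ± 0.82, edgeR, adjusted p = 0.000216).

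Dnah17, known as the outer arm chain of sperm flagella, was the outer arm member with the highest level in whole astrocyte TRAP, at 7.78, 10.8 and 9.48 CPM. In endfeet libraries it ranged from 7.0 to 44.3 CPM with a median of 13.6 CPM, so that the groups overlapped (log2 fold change 0.97 ± 0.66, edgeR, adjusted p = 0.278). Dnah8, the other chain known from sperm, was low everywhere, at 0 to 6.85 CPM in endfeet libraries and 0.309 ± 0.129 CPM (SD, n = 3) in whole astrocyte libraries, and did not pass (log2 fold change 3.15 ± 1.39, edgeR, adjusted p = 0.0972).

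Inner arm heavy chains, which shape the bend of the cilium, gave the most uniform group: 7 of the 8 tested were higher in endfeet TRAP and none lower. Dnah6 (chr6:73017606-73221651) reached 50 to 100 CPM in endfeet libraries with a median of 66.1 CPM, the highest level of an inner arm chain there. In whole astrocyte libraries it stood at 0.216, 1.11 and 0.351 CPM. The lowest endfeet library was thus far above the highest whole astrocyte library (log2 fold change 7.0 ± 0.71, edgeR, adjusted p = 9.46e-06). Dnah10, a chain of the double-headed inner arm, was at 3.65 to 36.2 CPM with a median of 22.5 CPM in endfeet libraries and at 0.460, 0.0265 and 0.154 CPM in whole astrocyte libraries (log2 fold change 6.55 ± 1.16, edgeR, adjusted p = 0.000797). The 0.0265 CPM was 1 count, below the floor of 3.

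Dnah3, Dnah12 and Dnah2, all single inner arm motors or arm partners, were also higher without overlap, with log2 fold changes of 6.44, 6.12 and 4.76. Dnah1 had the highest whole astrocyte level of the group, at 1.97, 1.93 and 2.13 CPM, and ranged from 2.66 to 40.7 CPM in endfeet libraries with a median of 10.6 CPM. Its difference (2.82 ± 0.92, edgeR, adjusted p = 0.0303) was less secure: without endfeet library 5 or any whole astrocyte library it was above the threshold (adjusted p at most 0.118). Dnah7b, at 0.457 to 9.74 CPM, was higher by 4.34 ± 1.33 (edgeR, adjusted p = 0.0229), and it too missed the threshold when a whole astrocyte library was left out (adjusted p at most 0.114). The lowest endfeet value of Dnah7b, in library 6, was 1 count, below the floor of 3. Its near-copies Dnah7a, which did not pass, and Dnah7c, with no count in any library, share sequence with it. The authors dropped reads that aligned more than once, so the split of reads among the copies is uncertain.

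**Figure D2:**
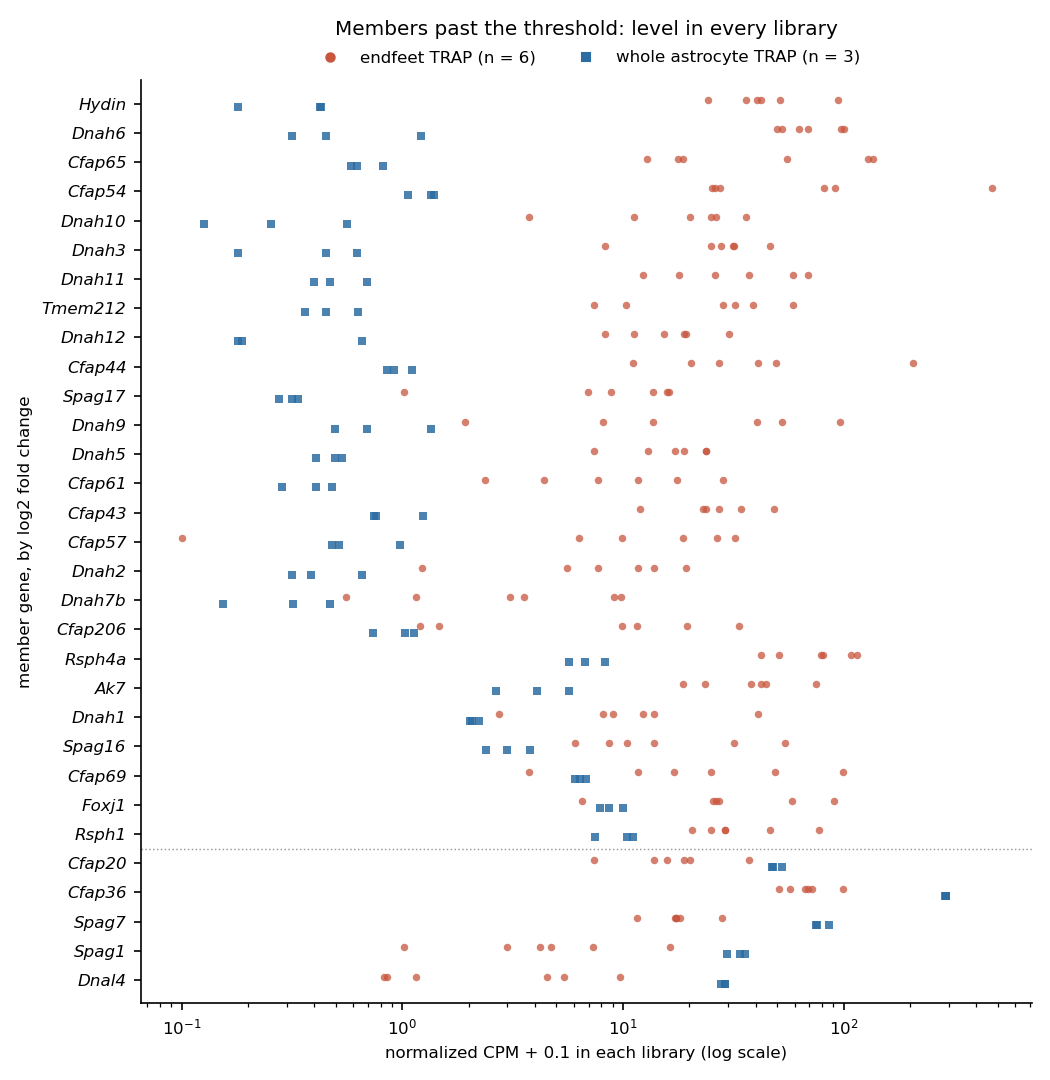
Normalized CPM + 0.1 (log axis) of the 31 members past the threshold in each of the 6 endfeet TRAP libraries (red circles) and 3 whole astrocyte TRAP libraries (blue squares), ordered by log2 fold change. Above the dotted line are the 26 higher members, of which Cfap57, Cfap69 and Foxj1 overlap between groups; below it are the 5 lower members, none of which overlaps.

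The small dynein chains Dnal1, Dnal4, Dnaic1 and Dnaic2 did not follow the heavy ones. Dnal1, the light chain bound to an outer arm motor domain, stood at 95.6, 94.2 and 88.1 CPM in whole astrocyte libraries and between 52.4 and 198 CPM in endfeet libraries with a median of 102 CPM (log2 fold change 0.24 ± 0.37, edgeR, adjusted p = 0.659). Dnal4, another member of the light chain series, was lower. It stood at 27.7, 28.9 and 28.9 CPM in whole astrocyte libraries and at 0.724 to 9.59 CPM in endfeet libraries, with a median of 2.74 CPM. The groups did not overlap (log2 fold change -3.02 ± 0.82, edgeR, adjusted p = 0.0126, and 0.0518 without whole astrocyte library 1). The Dnal4 call was also lost with the series of the deposited numbers as a covariate. The outer arm intermediate chains carry the symbols Dnaic1 and Dnaic2 in the annotation used, which the name pattern misses, and they were looked up after the other values were seen. Dnaic1 was at 46.4, 50.3 and 50.1 CPM in whole astrocyte libraries and at 0 to 17.7 CPM in endfeet libraries (log2 fold change -2.89 ± 0.89, edgeR, adjusted p = 0.0234), a call lost without any of the whole astrocyte libraries (adjusted p at most 0.0730). Dnaic2 overlapped between groups (-0.46 ± 1.12, edgeR, adjusted p = 0.779). Further small axonemal chains stand in the list of other motile cilia genes. There Wdr63 was higher (4.49 ± 1.12, edgeR, adjusted p = 0.00736). Wdr78 and Dnali1 did not pass (1.68 ± 0.70 and 1.55 ± 0.76, edgeR, adjusted p = 0.0823 and 0.130). Dnaic1 was lower in the libraries in which most heavy chains and Wdr63 were higher.

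Of the 6 radial spoke members tested, 4 were higher in endfeet TRAP and none lower. Rsph4a, a core protein of the spoke head, was at 42.3 to 116 CPM in endfeet libraries with a median of 79.9 CPM. In whole astrocyte libraries it stood at 6.65, 8.23 and 5.57 CPM, which made it one of the better counted members in both groups (log2 fold change 3.54 ± 0.47, edgeR, adjusted p = 9.37e-05). Rsph1, its partner in the spoke head, was at 7.35, 11 and 10.3 CPM against 20.6 to 77.7 CPM with a median of 29.0 CPM. It had the smallest change among the higher members (1.99 ± 0.56, edgeR, adjusted p = 0.0142), and without any of the whole astrocyte libraries it missed the threshold (adjusted p at most 0.0764). Its call was also lost with the series of the deposited numbers, whose meaning is unstated, as a covariate.

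Cfap61 and Cfap206, which belong to the base of the spokes, were low in whole astrocyte TRAP. Cfap61 was at 0.378, 0.185 and 0.307 CPM against 2.28 to 28.3 CPM with a median of 9.60 CPM (log2 fold change 5.33 ± 1.11, edgeR, adjusted p = 0.00247). For Cfap206 the lowest endfeet library, at 1.11 CPM, lay just above the highest whole astrocyte library, at 1.03 CPM (log2 fold change 3.89 ± 1.19, edgeR, adjusted p = 0.0224). The call was lost without any of the whole astrocyte libraries (edgeR, adjusted p at most 0.0997) and when only endfeet libraries 4 to 6 were used. Rsph9, the third head protein described here and the spoke member with the highest whole astrocyte level, was at 9.22, 12.1 and 13.5 CPM against 7.77 to 38.7 CPM and did not pass (log2 fold change 0.73 ± 0.61, edgeR, adjusted p = 0.376).

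Among the central apparatus members, which form the projections of the central microtubule pair, 5 of 9 tested were higher and none lower. Hydin (chr8:110266977-110610253, 87 exons in the counted transcript), a giant projection protein whose loss in mice causes hydrocephalus, had the largest change of all members. It stood at 0.324, 0.0794 and 0.329 CPM in whole astrocyte libraries and between 24.3 and 94.6 CPM in endfeet libraries with a median of 41.3 CPM (log2 fold change 7.58 ± 0.80, edgeR, adjusted p = 1.4e-05). Cfap54, a protein of a neighbouring projection, was at 1.30, 1.24 and 0.966 CPM against 25.3 to 468 CPM with a median of 54.4 CPM. The top value came from endfeet library 1 and the next was 91.3 CPM, while the lowest was still far above the whole astrocyte libraries (log2 fold change 6.67 ± 1.2, edgeR, adjusted p = 0.000863).

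Spag17, another large protein of a projection, was at 0.914 to 16.1 CPM against 0.216, 0.238 and 0.176 CPM (log2 fold change 5.59 ± 1.12, edgeR, adjusted p = 0.00189). Its lowest endfeet value, in library 6, was 2 counts, below the floor of 3. Spag16, also of the central pair, was at 5.94 to 54.3 CPM against 2.30, 3.68 and 2.90 CPM (2.81 ± 0.85, edgeR, adjusted p = 0.0217), a call lost without endfeet library 5 or any whole astrocyte library (adjusted p at most 0.0956). Cfap69 had the least secure call of the central apparatus members. It stood at 6.73, 5.95 and 6.30 CPM against 3.65 to 98.9 CPM with a median of 21 CPM, with overlap between groups (2.43 ± 0.88, edgeR, adjusted p = 0.0478). The call was lost in 7 of the 9 fits without a library (endfeet 1 to 4 and each whole astrocyte library; adjusted p at most 0.148), and the log2 fold change was 0.65 (adjusted p = 0.457) when only endfeet libraries 4 to 6 were used, which were deposited under numbers of the same series as the whole astrocyte libraries (numbers of unstated meaning).

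The proteins bound to or between the doublets gave a mixed group, with 3 of 13 higher, 1 lower and 9 not passing. Cfap44 and Cfap43, partners in the tether that ties an inner arm to its doublet, moved together. Cfap44 was at 0.757, 0.820 and 1.01 CPM in whole astrocyte libraries and at 11 to 206 CPM in endfeet libraries with a median of 34.0 CPM (log2 fold change 6.09 ± 1.05, edgeR, adjusted p = 0.000654). Cfap43 was at 0.649, 0.662 and 1.14 CPM against 11.9 to 48.1 CPM with a median of 25.3 CPM (5.09 ± 0.72, edgeR, adjusted p = 0.000145). Cfap57, of a doublet complex, had no count in 1 endfeet library and reached 32 CPM in another, against 0.378, 0.873 and 0.417 CPM (4.78 ± 1.40, edgeR, adjusted p = 0.0184), a call lost without any of the whole astrocyte libraries (adjusted p at most 0.0826).

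Cfap20, an inner junction protein found in motile and primary cilia, was lower instead. It stood at 47.6, 52.4 and 47.3 CPM in whole astrocyte libraries and between 7.31 and 37.1 CPM in endfeet libraries with a median of 17.3 CPM. There was no overlap (log2 fold change -1.38 ± 0.48, edgeR, adjusted p = 0.0407). But the call was lost in 5 of the 9 fits without a library (endfeet 2 or 3 and each whole astrocyte library, edgeR, adjusted p at most 0.144). It was also lost with endfeet libraries 4 to 6 only and with the number series as a covariate.

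The 2 members with the highest levels in whole astrocyte TRAP, in CPM and in CPM per kb of transcript, Spag9 and Cfap36, belong to groups with no settled place in the axoneme. Among the other Cfap proteins, Cfap36, an Arl3-binding protein also known as Ccdc104, was at 290, 292 and 289 CPM in whole astrocyte libraries and at 50.9 to 99.6 CPM in endfeet libraries with a median of 67.8 CPM. It was lower with little spread (log2 fold change -2.07 ± 0.26, edgeR, adjusted p = 4.91e-05). Cfap97, the one with the highest endfeet CPM when transcript length is left aside, was at 72.1, 65.6 and 56.4 CPM against 55.8 to 177 CPM and did not pass (0.55 ± 0.38, edgeR, adjusted p = 0.285). Cfap65, a protein known from the sperm flagellum, was the exception of this group, at 0.487, 0.715 and 0.527 CPM against 12.8 to 135 CPM with a median of 37.1 CPM (6.72 ± 1.05, edgeR, adjusted p = 0.000313).

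Of the Spag proteins that are not built into the axoneme, none was higher and 2 of 5 tested were lower. Spag1, a cytoplasmic factor for the assembly of dynein arms, was at 35.8, 33.8 and 29.6 CPM against 0.914 to 16.2 CPM with a median of 4.36 CPM (log2 fold change -2.44 ± 0.70, edgeR, adjusted p = 0.0164), a call lost without any of the whole astrocyte libraries (adjusted p at most 0.0764). Spag7 was at 75.3, 86.0 and 75.9 CPM against 11.4 to 28.0 CPM with a median of 17.3 CPM (-2.12 ± 0.37, edgeR, adjusted p = 0.000683). Spag9, a scaffold of the JNK pathway, had the highest CPM of all 72 members when transcript length is left aside, at 576, 523 and 555 CPM against 305 to 580 CPM with a median of 415 CPM, and did not pass (-0.33 ± 0.24, edgeR, adjusted p = 0.315).

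The members added by name included the master regulator. Foxj1 (chr11:116330704-116335399), the forkhead factor that switches on motile cilia genes, was at 7.78, 9.87 and 8.54 CPM in whole astrocyte libraries and between 6.4 and 90.2 CPM in endfeet libraries with a median of 26.8 CPM. The lowest endfeet library lay below all whole astrocyte libraries, and the difference passed narrowly (log2 fold change 2.16 ± 0.72, edgeR, adjusted p = 0.0329). It did not pass without endfeet library 4 or any whole astrocyte library (edgeR, adjusted p at most 0.115). The Foxj1 call was also lost with endfeet libraries 4 to 6 only, with the number series as a covariate and with counts summed over transcripts. Tmem212, a membrane protein used as a marker of ependymal cells, was at 0.351, 0.529 and 0.263 CPM against 7.31 to 58.7 CPM with a median of 30.1 CPM (6.24 ± 0.93, edgeR, adjusted p = 0.000207). Ak7, an adenylate kinase of motile cilia, was at 4.0, 5.61 and 2.57 CPM against 18.6 to 74.9 CPM with a median of 40.2 CPM (3.31 ± 0.61, edgeR, adjusted p = 0.00111). Ccdc153, a dynein regulatory complex protein widely used to mark ependymal cells, was at 5.27, 5.29 and 4.19 CPM against 0.938 to 22.4 CPM and did not pass (1.22 ± 0.95, edgeR, adjusted p = 0.341).

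The 12 members without a test were Cfap58, Cfap73, Cfap97d1, Dnah14, Dnah7c, Rsph3a, Rsph3b, Rsph6a, Rsph14, Spag6, Spag11a and Spag11b. Of these, Cfap97d1, Dnah7c, Spag11a and Spag11b had no count in any library. Spag6 and Spag6l, and Rsph3a and Rsph3b, are near-copies whose shared reads were dropped, and their values are uncertain.

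Levels of different genes can be compared only per length, here as CPM per kb of the counted transcript. On that scale, Tmem212 at 40.8 and Rsph1 at 31.8 CPM per kb were the highest of the 26 higher members in endfeet TRAP, and Hydin, for all its fold change, reached 3.05 and Dnah6 5.70 CPM per kb. In whole astrocyte TRAP, Cfap36 at 175, Spag9 at 75.1 and Spag7 at 68.2 CPM per kb led, Rsph1 stood at 8.02 and Foxj1 at 3.33, and Dnah6 at 0.0442 and Hydin at 0.0155 CPM per kb were near the bottom. Of the 10 largest log2 fold changes, all but that of Tmem212 belonged to transcripts of over 5000 bases.

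Differences between the groups followed transcript length in the members and in all genes. Over members with transcripts of up to 2000 bases, from 2000 to 5000 bases and above 5000 bases, the median log2 fold change was 1.0 (n = 18), 2.07 (n = 20) and 5.52 (n = 22). Over all genes tested it was -0.75, 0.06 and 0.91 in the same classes. Of the members above 5000 bases, 16 of 22 were higher and none lower, against 38% higher over all tested genes of that length. Of the shortest members, 2 of 18 (11.1%) were higher and 4 lower. Of the 3589 tested genes of that length, 424 (11.8%) were higher and 819 lower. Spearman's rho between length and log2 fold change was 0.58 across the 60 members and 0.29 across all 14427 genes, a description only, since genes share libraries and are not independent. When each library's trend over length was removed by an offset in edgeR, an alternative chosen after the data were seen, 24 members were higher, of which 23 were among the 26, and Dnah1, Dnah7b and Cfap69 were lost. Hydin and Dnah6 then stood at 5.59 (adjusted p = 0.000136) and 5.24 (adjusted p = 9.02e-05), and of the 5 lower members Cfap36 (-1.37, adjusted p = 0.0151) and Spag1 (-2.66, adjusted p = 0.0104) still passed. With that offset Dnal4, Spag7 and Cfap20 no longer passed.

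**Figure D3:**
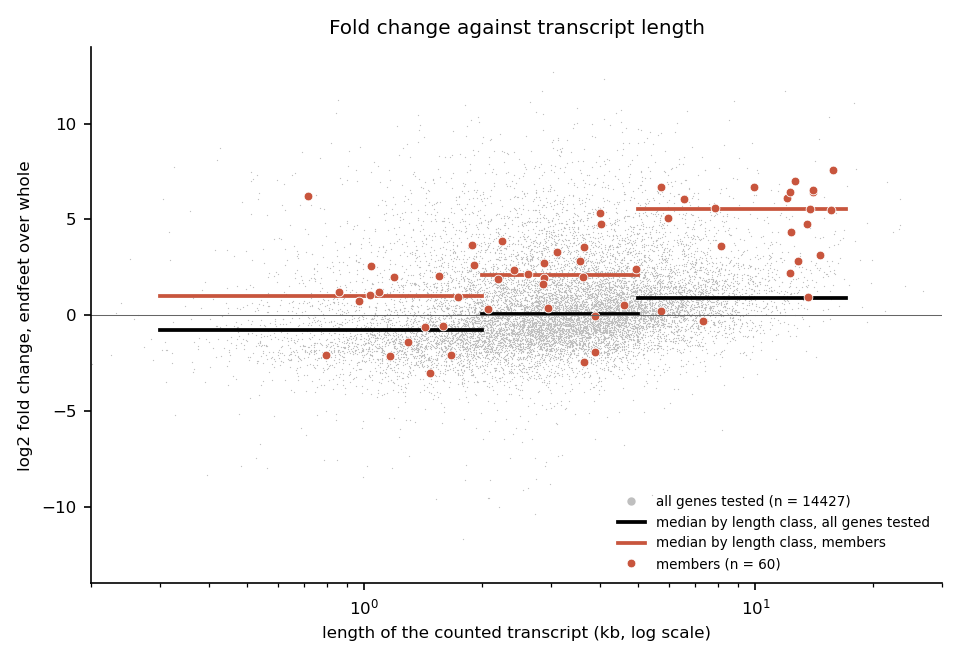
Log2 fold change (endfeet TRAP over whole astrocyte TRAP) against the length of the counted transcript in kb (log axis) for the 14427 genes tested (grey) and the 60 members (red), with the median of each length class as a line (black, all genes; red, members). Both medians are higher in the longer classes, and the members' median is above that of all genes in each class (1.0 against -0.75, 2.07 against 0.06 and 5.52 against 0.91).

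Promoters were read because many members moved together. The factors Rfx2 and Rfx3 bind the X-box, whose arm GTTGCC lies in the promoters of many ciliary genes, and Foxj1 binds forkhead sites such as GTAAACA. RefSeq promoters (GRCm38.p6, which is mm10) from 250 bases before to 50 after the start were found for 57 members. On either strand, GTTGCC was present in 21 of 57 members (36.8%) and in 14.1% of 27025 genes, and GTAAACA in 4 of 57 (7.02%) and 4.05% of all. A strict X-box pattern with both arms (GTTNCC, a gap of 2 bases, then GGNAAC, which can include GTTGCC) was found in 1 member, Cfap298, and 0.529% of all genes. Looser forms of the arms were not counted. GTTGCC was found in 5 of 20 higher members (25%) and in 16 of 37 other members (43.2%). The following are stretches of 120 bases upstream of the start, 5′ to 3′ on the strand of the gene, with GTTGCC or its complement GGCAAC in capitals. They show how the arm stands in 4 of the 5 higher members that have it, and in Cfap298. Cfap298 matches the strict pattern and did not pass (log2 fold change -0.63 ± 0.45, edgeR, adjusted p = 0.298).
Hydin, chr8:110266857-110266976, plus strand: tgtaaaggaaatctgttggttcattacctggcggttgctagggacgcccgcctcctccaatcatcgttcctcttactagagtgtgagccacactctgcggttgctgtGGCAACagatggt
Dnah10, chr5:124724965-124725084, plus strand: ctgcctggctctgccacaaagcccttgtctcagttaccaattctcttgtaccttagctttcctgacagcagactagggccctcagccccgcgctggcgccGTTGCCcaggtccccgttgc
Cfap44, chr16:44394679-44394798, plus strand: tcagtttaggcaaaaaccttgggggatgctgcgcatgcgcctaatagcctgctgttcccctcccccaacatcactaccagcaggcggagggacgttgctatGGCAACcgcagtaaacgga
Spag16, chr1:69826802-69826921, plus strand: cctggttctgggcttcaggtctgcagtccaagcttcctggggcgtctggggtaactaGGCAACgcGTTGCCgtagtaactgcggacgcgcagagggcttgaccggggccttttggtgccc
Cfap298, chr16:90934975-90935094, minus strand: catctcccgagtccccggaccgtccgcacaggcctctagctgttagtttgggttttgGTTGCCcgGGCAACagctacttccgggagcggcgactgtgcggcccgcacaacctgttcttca
In Hydin, Dnah10 and Cfap44 the arm begins 13, 20 and 19 bases before the start. In Hydin and Cfap44 the letters gttgct stand 2 bases ahead of GGCAAC, a looser form that the strict pattern leaves out. Spag16 carries GGCAAC and GTTGCC side by side, in the order opposite to that of the strict pattern, and Cfap298 carries them in the order of that pattern. After its GTTGCC and a gap of 2 bases, Spag16 also has agtaac, which the strict pattern does not take as an arm. A match of letters does not show that a factor binds there.

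The wider ciliary programme was followed in lists of other genes. Of 81 tested genes of motile cilia that are not members (docking complexes, dynein regulatory complex, tektins and others), 28 were higher and 5 lower, with a median log2 fold change of 1.99. Cdhr3, a cadherin of multiciliated cells, was at 0.568, 0.344 and 0.307 CPM against 15.9 to 73.5 CPM (6.49 ± 0.77, edgeR, adjusted p = 3.67e-05), and Stoml3, a membrane protein of ciliated cells, at 0.432, 0.556 and 0.198 CPM against 17.1 to 82.3 CPM (6.48 ± 0.88, edgeR, adjusted p = 0.000101). Ak9, another adenylate kinase, was at 0, 0.132 and 0 CPM against 0 to 8.03 CPM in endfeet libraries (6.39 ± 1.77, edgeR, adjusted p = 0.0137). Its groups overlapped, and its only whole astrocyte counts were 5 in library 2. The last call was lost without whole astrocyte library 1 or 3 (adjusted p at most 0.0729). The higher genes were 34.6% of this list, against 43.3% of the members tested.

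Of the dynein arm assembly factors most did not pass, with 1 of 12 higher (Zmynd10, 3.81 ± 1.03, edgeR, adjusted p = 0.0117), 1 lower (Ruvbl2, a helicase with many other roles, -1.85 ± 0.49, edgeR, adjusted p = 0.0105) and a median of 0.90. Both calls were lost without a whole astrocyte library (adjusted p at most 0.0674 and 0.0604). Of 14 regulators of multiciliated cell fate and of cilia genes, 4 were higher and 2 lower, with a median of 1.16. The higher ones included Trp73, a driver of multiciliated fate, at 0.487, 1.22 and 0.724 CPM against 5.45 to 39.7 CPM (4.51 ± 0.91, edgeR, adjusted p = 0.00196), Deup1, which amplifies centrioles (4.28 ± 1.51, edgeR, adjusted p = 0.0433), and Myb (3.65 ± 1.28, edgeR, adjusted p = 0.0419). Of the 2 lower ones, E2f5 stood at 106, 114 and 114 CPM against 2.17 to 21.2 CPM (-3.12 ± 0.54, edgeR, adjusted p = 0.000645). Rfx4, an RFX factor of neural progenitors, was at 390, 372 and 390 CPM against 25.6 to 143 CPM (-2.72 ± 0.44, edgeR, adjusted p = 0.000369). Rfx2 and Rfx3 did not pass (-0.30 ± 0.64 and -0.87 ± 0.40, edgeR, adjusted p = 0.748 and 0.106). E2f5, Rfx2, Rfx3 and Rfx4 were chosen after their values were seen. The calls of Deup1 and Myb were each lost in 7 of the 9 fits without a library (adjusted p at most 0.154 and 0.136), those without any of the whole astrocyte libraries among them.

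The list of intraflagellar transport and primary cilium genes, which does not set primary apart from motile cilia, did not share the pattern of the members. In it 2 of 63 genes were higher and 7 lower, with a median log2 fold change of -0.27. The higher ones were Dync2h1, the heavy chain of the retrograde transport dynein (2.74 ± 0.61, edgeR, adjusted p = 0.00381), and Tmem67, a transition zone protein (2.47 ± 0.88, edgeR, adjusted p = 0.0439), whose call was lost in 7 of the 9 fits without a library (adjusted p at most 0.151). Ift27, a small GTPase of the transport train, was the most changed of the list and was lower, at 57, 68.4 and 65.1 CPM against 0.188 to 7.74 CPM (-3.86 ± 0.77, edgeR, adjusted p = 0.00178). Among subunits of cytoplasmic dynein and dynactin, which carry cargo along microtubules outside the cilium, 15 of 25 were lower and 1 higher, with a median of -1.25. The higher one was the heavy chain Dync1h1, at 58.7, 55.0 and 61.8 CPM against 210 to 426 CPM (2.46 ± 0.29, edgeR, adjusted p = 3.01e-05), while the small subunit Dynlrb1 (-2.38 ± 0.35, edgeR, adjusted p = 0.000177) and the regulator Nde1 (-2.65 ± 0.62, edgeR, adjusted p = 0.00525) were lower. The transcript of Dync1h1, like those of the axonemal heavy chains, is among the long ones.

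**Figure D4:**
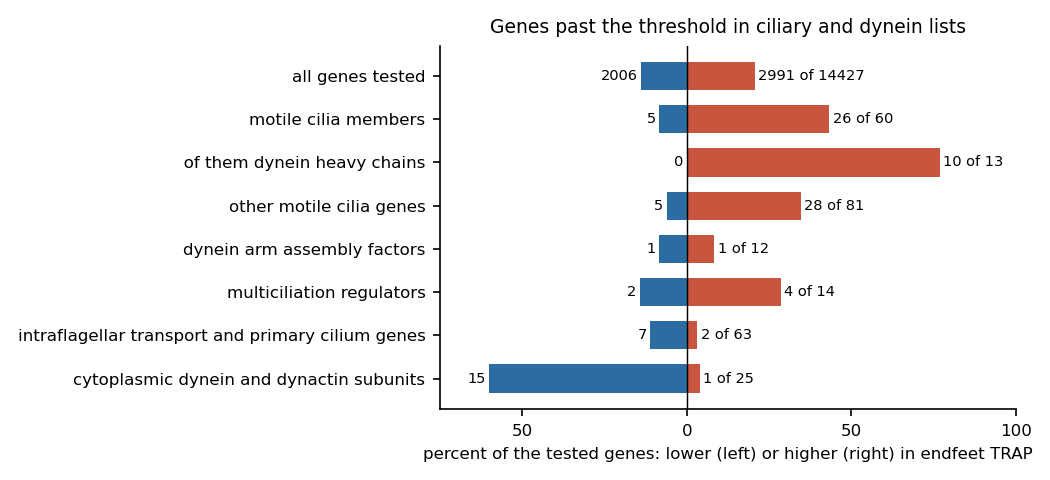
Percent of tested genes that passed the threshold as lower (blue, left) or higher (red, right) in endfeet TRAP, with their numbers, for all genes, for the members and for 5 lists of other ciliary and dynein genes. The members (26 of 60) and the other motile cilia genes (28 of 81) have more higher genes than all genes (2991 of 14427), and intraflagellar transport (2 of 63) and cytoplasmic dynein genes (1 of 25) fewer.

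The 2 multiciliated cell types of the brain were followed by their markers. Of 20 ependymal markers that are not members (18 of them also in the list of other motile cilia genes), 19 were tested, 8 were higher and 1 lower. Their summed level was 170 to 332 CPM in endfeet libraries and 66.5 to 76.9 CPM in whole astrocyte libraries, and none was at 0 in all libraries of a group. Of 16 choroid plexus epithelial markers, 15 were higher, and none was at 0 in any endfeet library or in all whole astrocyte libraries. Their sum was 7427 to 94785 CPM in endfeet libraries and 84.3, 1586 and 1301 CPM in whole astrocyte libraries. Ttr, the transthyretin made by that epithelium, gave most of this sum, at 6395 to 86764 CPM against 28.4, 1382 and 1125 CPM (5.21 ± 1.18, edgeR, adjusted p = 0.0043).

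The members and the choroid plexus markers differed in size within each group. The libraries compared here are those with the highest and lowest choroid plexus sum of each group, so that ratio is the largest by choice. Endfeet library 1 had 12.8 times the choroid plexus sum of endfeet library 5, and 0.957 times that of the ependymal list. It had 1.54 times the sum of the heavy chains and 2.57 times that of the 26 higher members (1694 against 660 CPM). Cfap54 alone gave 468 CPM of the 1694 CPM. Whole astrocyte library 2 had 18.8 times the choroid plexus sum of whole astrocyte library 1, and 1.24 times the sum of the 26 higher members (56.4 against 45.4 CPM). The 26 were chosen because they passed upwards, so the gap between groups in their sum follows from that choice. The sum over all 72 members was 1390 to 1418 CPM in whole astrocyte libraries and 1419 to 2809 CPM in endfeet libraries. Library 1 was the highest endfeet library for 13 of the 26 higher members. Without it 31 members were higher, and with endfeet libraries 4 to 6 only, 24 were. What part ependymal or choroid plexus RNA has in the members' levels was not tested.

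**Figure D5:**
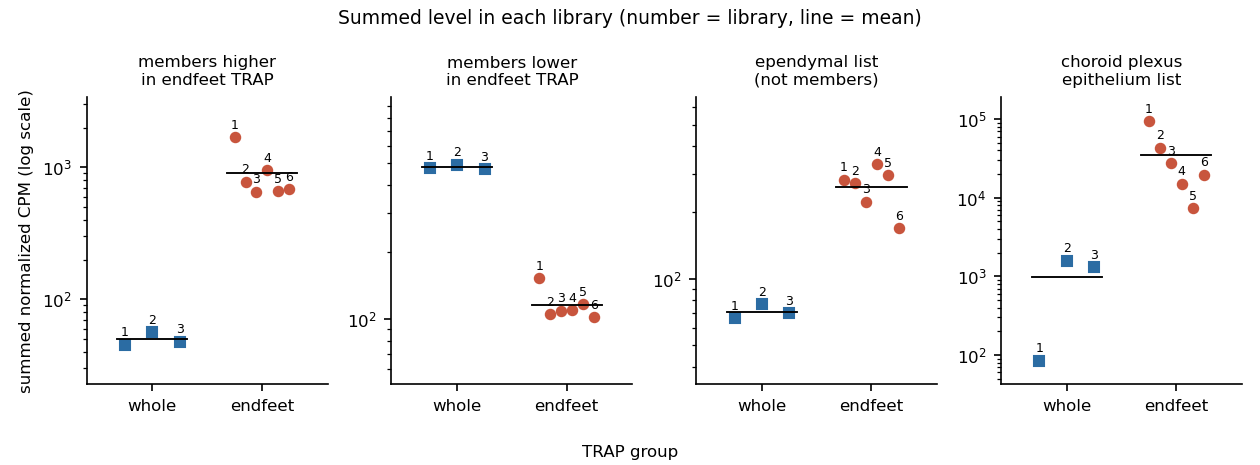
Summed normalized CPM (log axes, which differ between panels) in each whole astrocyte TRAP (blue) and endfeet TRAP (red) library, numbered, with the group mean as a line, for the 26 higher members, the 5 lower members, the ependymal list and the choroid plexus list. The higher members sum to 45.4 to 56.4 CPM in whole astrocyte and 655 to 1694 CPM in endfeet libraries. The 26 and the 5 were chosen by their difference, so the gaps between groups in their sums follow from that choice. The choroid plexus sums spread more widely within each group than the members' sums do.

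Members that share exons with other genes need care, since no strand setting of the counting was given. Of the members past the threshold, Dnah3 shares 12.3% of its transcript with the protein-coding gene Lyrm1, Spag17 10.4% with Wdr3, Dnah11 4.56% with Cdca7l and Cfap61 0.675% with Crnkl1, all on the opposite strand. Overlaps of these members with noncoding genes reach at most 6.56%, for Spag17 with Spag17os, and Cfap298, which did not pass, shares 46.2% with Gm49727 on the opposite strand. Reads of these stretches cannot be assigned to a strand.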

How the data were processed

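The authors amplified the polysomal RNA, aligned the reads to mm10 with Bowtie in the Eoulsan pipeline, kept reads with a unique alignment and counted these with HTSeq 0.5.3 on Ensembl annotation. The deposited values are raw counts per transcript, neither normalized nor pooled. Of 75466 transcripts, 73164 were matched to GENCODE M21, and for each gene the transcript with the largest total CPM was used, since transcripts of a gene repeat the same reads. All 9 libraries entered the comparison, made with edgeR 4.0.16 in R 4.3.3 (TMM, filterByExpr, quasi-likelihood test, Benjamini-Hochberg adjustment over all genes tested). The SE was obtained from the log2 fold change and the F of its test. The scripts were tested on simulated data. The members, their roles, the gene lists and the tests were chosen with earlier results of these data known, and members were dropped from the lists. Genes named are the 5 given singly by the rule, all passing members and the 3 most changed genes of each list. In each role they are also the 2 passing members with the largest change and the member with the highest mean CPM in each group (not divided by length). Dnah8, Cfap298, Dnaic1, Dnaic2, Wdr63, Wdr78, Dnali1, E2f5, Rfx2, Rfx3, Rfx4, Tekt4 and Ttr were added after their values were seen. Alternatives were DESeq2 1.42.0, limma 3.58.1 voom, other scaling, filters and transcript sums, the replicate block, thinning and each library left out. A further alternative was the series of the deposited numbers, whose meaning is unstated. Nothing in the labels shows that libraries of a group were separate animals beyond the single brains and vessel pools, so p-values measure the spread between these libraries. The SE includes the spread between libraries, and the floor of 3 counts covers counting error only.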

Additional observations from a re-analysis of the deposited data

Results flagged for a closer look

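A value far above the other 5 endfeet libraries was found in 8 of 57 genes examined, some of them chosen after their values were seen. For independent, normally distributed values chance gives a value this far out at either end in about 1 in 20, and less often at the top alone. That rate was not tested for CPM or for genes that share libraries. Endfeet library 1 held 5 of these values, 468 CPM of Cfap54 (next 91.3 CPM), 206 CPM of Cfap44 (next 49.1 CPM), 177 CPM of Cfap97 (next 99.3 CPM), 183 CPM of Dync2h1 (next 61.8 CPM) and 15.6 CPM of Dnaic2 (next 5.63 CPM). Endfeet library 6, the one with the fewest counts, held 44.3 CPM of Dnah17 (next 20.2 CPM) and 40.7 CPM of Dnah1 (next 13.7 CPM). Endfeet library 4 held 143 CPM of Rfx4 (next 58.2 CPM).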

How the results depend on the processing

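Across 21 alternative fits, 18 of the 26 higher members and Cfap36 among the 5 lower ones passed wherever they were tested. The number of higher members was 26 with DESeq2 size factors in edgeR and 32 with DESeq2's Wald test and with limma voom, and it was 13 with at least 10 counts in every library, which left 23 members to test. Lower members numbered 3 with that filter, 3 with the number series as a covariate, 3 with the length offset and 8 with limma voom. With 1 library left out, 18 to 31 members were higher and 2 to 6 lower. Genes of the 5 lists numbered 36 higher and 30 lower. The higher ones were 17 with at least 10 counts in every library, 60 without both endfeet libraries 1 and 6 and 14 to 44 with 1 library left out, the lowest without whole astrocyte library 3. The lower ones were 55 with limma voom, 47 without both endfeet libraries 1 and 6 and 17 to 42 with 1 library left out. Without both endfeet libraries 1 and 6, a setting added after the data were seen, 37 members were higher. The causes were not tested.

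The replicate numbers pair no samples (mean correlation of deviations 0.0065 for the same number and 0.00028 for different numbers), and with the replicate block 23 members were higher and 6 lower. Some genes that did not pass changed sign, and did not pass then either. Dnal1 was at -0.00506 with the replicate block, -0.0327 without endfeet library 1 (-0.0327 to 0.380 with 1 library left out), -0.0149 without both endfeet libraries 1 and 6 and -0.44 with the length offset. Dnah17 went from 0.97 to -0.81 and Cfap298 from -0.63 to 0.29 with the length offset, Cfap97 at -0.00809 with endfeet libraries 4 to 6 only, and Dnaic2, at -0.46 in the comparison as reported, at 0.20 with the replicate block and 0.0431 in thinned libraries. The depth of endfeet library 6, in which 50 of 72 members had a count, limits what can be said of members below 1.37 CPM.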
